A study of Mus musculus with 2 samples.

Results

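A small set of collagen-expressing fibroblasts was found among barcodes labelled as aortic white cells. Members were chosen by their own UMI counts: they are barcodes with at least 500 detected genes and at most 15% mitochondrial UMIs (unique molecular identifiers, tags that mark single RNA molecules) that held at least 5 UMIs summed over Dcn, Col1a1, Col1a2 and Col3a1, no UMI of the T cell gene Cd3e or the B cell gene Cd79a, and at most 1 UMI over the macrophage genes C1qa, C1qb and C1qc. Of 24504 kept barcodes, 124 met this rule, 64 of them from the treated and 60 from the control library, as the labels name them. The levels of its genes describe the choice and are no finding.

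The material was mouse aorta, and the labelled population was CD45+ cells, that is, leukocytes carrying the surface antigen encoded by Ptprc. One library came from animals given ZnDPA@siIRF5, which by its name carries an siRNA directed at Irf5, the gene of a transcription factor active in inflammatory macrophages, and 1 library came from control animals. Genotype, strain, diet, age, the number of animals per library and what the control animals were given are not given in the sources used here. With 1 library per group there was no replicate and no test: every difference below is between 2 libraries, every interval covers counting error only, and animal, dissection, library and treatment cannot be told apart.

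Fibroblasts are mesenchymal cells that lay down and remodel connective tissue. They secrete fibrillar collagens and the proteoglycans, such as decorin (Dcn), that coat collagen fibrils, and they assemble elastic fibres from tropoelastin and fibulins. In arteries they lie mostly in the adventitia, the outer coat, where cells marked by Pi16, Dpp4, Ly6a and Cd34 are regarded as a progenitor-like state. Fibroblasts also answer interleukin-1 and tumour necrosis factor through the transcription factor NF-kappaB, and then release chemokines that draw in monocytes and neutrophils.

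The label was checked on fibroblast genes that the rule did not read. Pdgfra, the receptor for platelet-derived growth factor that marks fibroblasts in most tissues, had a UMI in 62.5% of treated and 53.3% of control members. The collagen-binding genes Lum and Dpt were found in 68.8% and 73.4% of treated members and in 63.3% and 61.7% of control members. A T cell gate took barcodes with at least 2 UMIs of Cd3e and no Cd79a UMI. It allowed at most 1 UMI each over the C1q genes and over the rule's collagen and decorin genes. In its barcodes Lum was found in 0.318% of treated and 0.0675% of control barcodes. Their medians were 4917 and 4082 UMIs per barcode against 4732 and 5236 in the members. Because the gate itself limits collagen and decorin UMIs, these shares cannot measure what free RNA in the droplets gives. Dcn, a gene of the rule, is given as a description only: it was found in all 64 treated members and in 57 of 60 control members. Its level per cell ran from 189 through a median of 7957 to 19417 CPM (the cell's UMIs scaled to a fixed total of 1e6) in the treated library and from 0 through 8141 to 25878 CPM in the control library, so the ranges overlapped almost entirely.

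**Figure D1:**
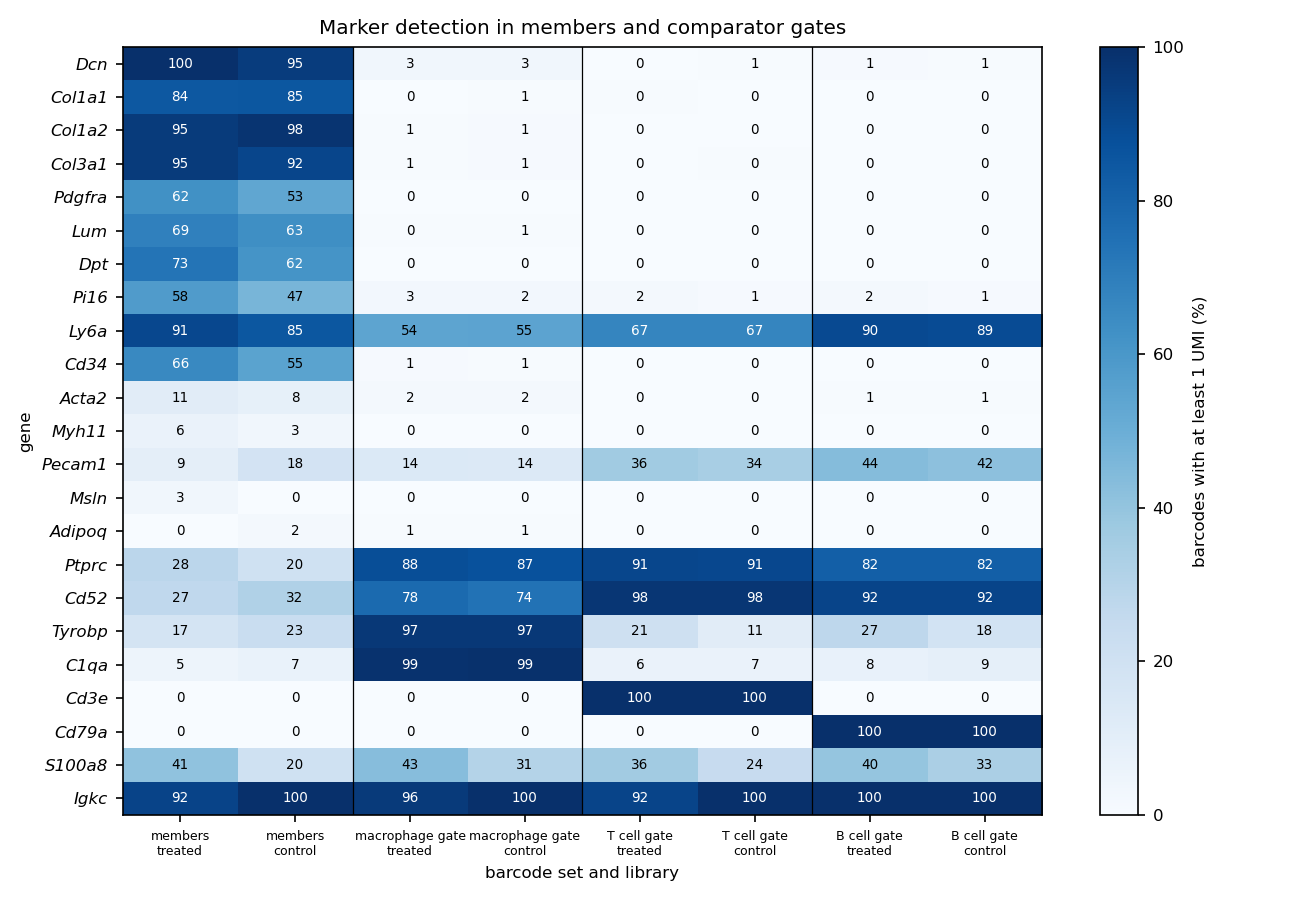
Percent of barcodes with at least 1 UMI of each marker gene (rows) in the members and in the macrophage, T cell and B cell gates of each library (columns; colour and printed number both give the percent). The Dcn and collagen rows show how the members and gates were chosen. Outside the rule, Pdgfra is seen in 62.5 and 53.3% of members, whereas Ptprc is seen in 28 and 20% of members against 82 to 91% of the leukocyte gates.

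For most of these barcodes the label CD45+ was not borne out by Ptprc RNA, and the protein was not read here. An exception is sub-cluster 2, described below, where 72.7% of 22 cells had a UMI of Ptprc. Ptprc had 26 UMIs in 18 treated members and 43 UMIs in 12 control members, 28.1% and 20% of cells, against 88.3% and 87.4% in the macrophage gate (at least 10 UMIs of the C1q genes). Over the 10 genes of the leukocyte list (Ptprc, Cd52, Laptm5, Coro1a, Cd53, Rac2, Tyrobp, Fcer1g, Srgn, Lcp1), all of which were detected, members held 1171 and 1394 CPM, whereas macrophage-gate barcodes held 9854 and 9579 CPM. Most members carried little of this: 38 of 64 (59.4%) and 34 of 60 (56.7%) had at most 2 UMIs of the list, 4 and 5 had more than 20, and the highest had 111 and 87. These leukocyte levels are given again beside the results they touch.

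Some defining markers of other stromal cells were absent. The lymphatic genes Prox1, Flt4, Mmrn1 and Reln, the Schwann cell gene Sox10, and the cartilage genes Chad and Cnmd had no UMI in any member, and the vascular endothelial gene Cdh5 had 10 and 8 UMIs, each set in 1 cell. Over whole marker lists, the treated and control members held 86 and 156 UMIs of pericyte genes (in 24 and 27 cells), 469 and 1288 of lymphoid tissue stromal genes (49 and 42 cells), 58 and 146 of chondrocyte genes (13 and 15 cells), 706 and 50 of smooth muscle genes (30 and 19 cells), 80 and 65 of endothelial genes (8 and 12 cells), 2 and 31 of lymphatic genes (2 and 3 cells) and 22 and 26 of Schwann cell genes (10 and 7 cells). Their part in the results was not tested. A few single cells stood apart. One treated member with 15898 UMIs held 221 of the 233 treated UMIs of Acta2 (smooth muscle actin), 296 of 298 of Tagln, 70 of 86 of Myl9 and all 22 of Cnn1, and only 3 of Dcn. One control member with 12200 UMIs held 584 of the 655 control UMIs of Fabp4, all 14 of Adipoq and all 89 of Cfd, which are adipocyte genes, and none of Dcn. A treated cell held 27 of the 28 UMIs of the mesothelial gene Msln. Over the whole lists, treated and control members held 150 and 86 UMIs of mesothelial genes (16 and 24 cells). They held 32 and 849 UMIs of adipocyte genes (8 and 15 cells). The main results that rest on the cells high in Acta2 and in Fabp4 are also given without them.

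Members made up 0.513% of kept barcodes in the library labelled treated (exact Clopper-Pearson 95% interval 0.396 to 0.655) and 0.498% in the other (0.381 to 0.641), so their share did not differ beyond counting error. The share in a sorted suspension reflects the sort as well as the tissue. The rule's threshold fell in a thin part of the distribution: 2 treated and 0 control barcodes that also passed the exclusions for T cell, B cell and C1q genes lay just outside it, with 3 or 4 UMIs of the rule's genes, and 5 and 5 lay just inside, with 5 to 9 UMIs, none of these 10 with a UMI of Pdgfra. A further 23 and 31 barcodes had at least 5 collagen and decorin UMIs but were left out for T cell, B cell or C1q genes. Members held 371609 and 340109 UMIs in all, 771 to 20730 per treated cell and 825 to 25218 per control cell. No member was called a doublet. Of the 23 and 31 barcodes left out above, only 1 in each library was called, so the absence of a call cannot show that members were free of mixtures. No member barcode was found in the other library, although 45 barcodes occurred in both libraries. No member had a UMI of Xist, and 36 members in each library had one of a Y-linked gene.

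Small as the set was, it carried much of the stromal RNA in the data. The 0.506% of kept barcodes that were members held, among genes that the rule did not read, 87.7% of Cd248, 87.0% of the fibrillin gene Fbn1, 81.4% of Ptx3, 76.1% of Sema3c, 73.1% of Serping1, 71.9% of the hyaluronan synthase gene Has1, 58.7% of Osmr, 56.7% of Cxcl12, 38.6% of Tnfaip6 and 33.0% of complement C3. For chemokines that macrophages also make the share was small, 2.33% for Ccl2 and 3.37% for Cxcl1. The named genes with the highest mean levels in members were Fth1, Malat1, Dcn and Gsn, at 11367, 9036, 7745 and 7855 CPM in the treated library and 10747, 7771, 8503 and 7997 CPM in the control library. C3, the central complement component, stood at 5099 and 4722 CPM.

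Members were not uniform among themselves. Graph clustering of the 124 cells gave 4 sub-clusters, which are described by their leading genes and were given no cell type name. Since those genes define the clusters, their levels are a description and cluster sizes are not compared between libraries. Sub-cluster 0 (46 cells) was led by C7, Cxcl13, Penk, Inmt and Adh1. Cxcl13, a chemokine for B cells, averaged 4275 CPM inside it and 832 CPM in the other members, and Cxcl12 was found in 95.7% of its cells. Sub-cluster 1 (34 cells) was led by Opcml, Sema3c, Aldh1a3, Smpd3 and Ifit3. It held the genes of the progenitor-like adventitial state at high levels: Pi16 averaged 2795 CPM inside and 807 CPM outside, Dpp4 159 and 36.4 CPM, and Clec3b was found in all of its cells.

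Sub-cluster 2 (22 cells) was led by S100a9, S100a8, Fcer1g, Satb1 and Tyrobp, all genes of white cells. Its cells had a median of 15.5 leukocyte UMIs against 1 or 2 in the others, and Ptprc was found in 72.7% of them. They also carried Dcn (95.5% of cells, 3887 CPM) at a median of 2305 UMIs per cell, lower than the 3563 to 7378 of the other sub-clusters. Sub-cluster 3 (22 cells) was led by Acta2, Ccn2, Myl9, Comp and Smoc1, genes of contractile cells and of load-bearing matrix. It held the cells high in Acta2 and in Fabp4 described above, and 1 control cell with 100 of the 139 control UMIs of Comp. Acta2 was found in 36.4% of its cells, and Myl9 and Comp in 31.8% each, so these levels rest largely on single cells. Ccn2, a gene switched on by mechanical load and transforming growth factor beta, was found in 59.1% of its cells. At a finer resolution the members split into 5 groups, and the 22 cells with white cell genes again formed a group of 22.

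**Figure D2:**
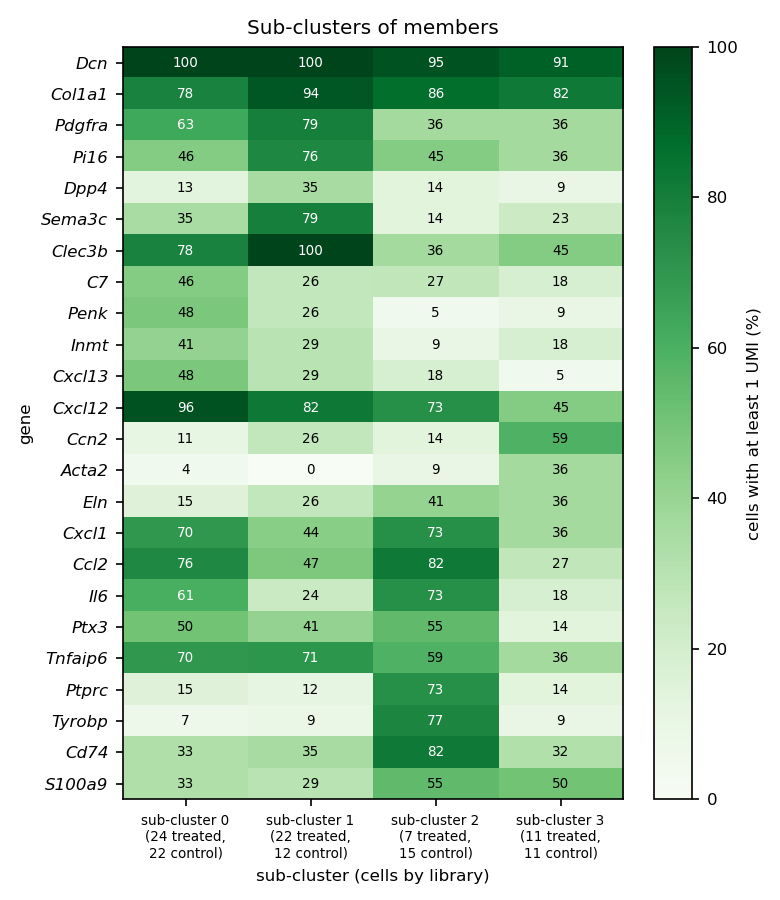
Percent of cells with at least 1 UMI of each gene (rows) in the 4 sub-clusters of members (columns, with cells per library), colour and number both giving the percent. Dcn is at 91% or more in every sub-cluster, Pi16 and Sema3c are highest in sub-cluster 1, Ptprc and Tyrobp in sub-cluster 2 and Acta2 and Ccn2 in sub-cluster 3.

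The comparison of the libraries asks how fibroblasts of aortas from animals given the IRF5 siRNA differ from those of control animals. UMIs were summed over the members of a library, scaled to CPM, and compared as the log2 of treated CPM over control CPM, with an exact conditional binomial 95% interval. Irf5 itself could not be read in members: it had 4 UMIs in treated and 2 in control members (10.8 and 5.88 CPM), against 124 and 115 CPM in the macrophage gate. Over the 5532 genes with at least 20 UMIs the median log2 ratio was 0.08. Of these genes, 19.6% were at least 1.5-fold higher and 15.9% at least 1.5-fold lower in the library labelled treated, and 11.0% and 10.1% had an interval wholly above or below 0. A ratio above 0 was found for 54.7% of them. Counts of list genes are read against these shares. Among the 1449 genes with at least 50 UMIs and 20 CPM in a library, 176 (12.1%) were at least 1.5-fold higher and 225 (15.5%) at least 1.5-fold lower, and 54.5% had a ratio above 0. With TMM scaling these counts were 136 and 266, so the split between higher and lower depends on the scaling.

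Most chemokine genes were lower in the library labelled treated. Of the 14 chemokine genes measured, 7 were at least 1.5-fold lower and 3 at least 1.5-fold higher, and 8 had intervals below 0 and 2 above it. The list's median log2 ratio was -0.64, with 5 genes above and 9 below 0, and it was -0.28 with equal weight per cell. Cxcl1, which draws neutrophils, had 229 UMIs in 29 of 64 treated members and 1038 UMIs in 42 of 60 control members, 616 CPM (539 to 701) against 3052 CPM (2869 to 3243), a log2 ratio of -2.31 (-2.52 to -2.10). Per cell it ran from 0 through a median of 0 to 8055 CPM in treated members and from 0 through 2604 to 16502 CPM in control members, so the ranges overlapped while the medians did not.

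The monocyte chemokine gene Ccl2 averaged 1405 CPM in treated and 3705 CPM in control members, with a log2 ratio of -1.40 (-1.55 to -1.25), and was found in 32 and 43 members. Its neighbour in function, Ccl7, stood at 1276 and 2905 CPM, but about the same share of cells had a UMI of it, 62.5% and 63.3%. Cxcl2, a second neutrophil chemokine, stood at 401 and 1255 CPM, a log2 ratio of -1.65 (-1.93 to -1.37), and at -2.53 among members with a UMI of Pdgfra. Cxcl12, which retains leukocytes and progenitors in tissue, was at 1537 and 2770 CPM, a log2 ratio of -0.85, but at -0.28 when each cell was given equal weight. Cxcl13 had a log2 ratio of -1.78 (-1.97 to -1.60) with near-equal numbers of cells, 19 and 18, and 1 control cell held 382 of its 987 UMIs. It was at -1.01 among members with at most 2 leukocyte UMIs. Ccl11, the eosinophil chemokine, ran the other way: 595 CPM in treated against 273 CPM in control members, a log2 ratio of 1.12 (0.77 to 1.49). Ccl11 was picked out after its values were seen.

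In the T cell gate, which should lack these genes, Cxcl1 was at 14.5 and 17.3 CPM in the treated and control libraries and was found in 3.87% and 3.04% of barcodes, far below the members. Members with little leukocyte RNA gave the same direction. With at most 2 leukocyte UMIs (38 and 34 cells) the log2 ratio was -1.997 for Cxcl1, -1.91 for Ccl2 and -1.36 for Ccl7, and the median of the chemokine list was -1.01. Without sub-cluster 2, whose cells carry white cell genes, Cxcl1 was at -2.32, Ccl2 at -1.36 and Ccl7 at -1.05.

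Cytokine genes pointed the same way. Of 13 measured genes of cytokines and leukocyte survival factors, 8 were at least 1.5-fold lower and 1 at least 1.5-fold higher, the median log2 ratio was -0.97, and 10 of 13 were below 0. Il6, the gene of interleukin-6, had 127 UMIs in 17 treated members and 395 UMIs in 39 control members, 342 against 1161 CPM, a log2 ratio of -1.76 (-2.06 to -1.47). At least 1 UMI of Il6 was found in 26.6% of treated and 65.0% of control members, and the median cell was at 0 and at 548 CPM. Sub-cluster 2, with 7 treated and 15 control cells, held 1 treated and 58 control UMIs of Il6. Without that sub-cluster the log2 ratio of Il6 was -1.70, and with at most 2 leukocyte UMIs it was -1.32. Ptgs2, the inducible cyclooxygenase that makes prostaglandins, stood at 183 and 562 CPM (-1.62, -2.04 to -1.21). Il33, an alarmin stored in stromal nuclei, stood at 213 and 423 CPM (-0.99, -1.41 to -0.59), and at -0.46 without sub-cluster 2 and -0.38 with at most 2 leukocyte UMIs. Csf1, the macrophage growth factor, stood at 143 and 279 CPM (-0.97, -1.48 to -0.47). Csf1 was also picked out after its values were seen.

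Genes of the NF-kappaB pathway and its feedback were lower as a group. Of 11 measured, 7 were at least 1.5-fold lower and 0 at least 1.5-fold higher, with a median log2 ratio of -0.77 and 10 of 11 below 0. Nfkb1, which encodes the p105 precursor of the p50 subunit, had 146 UMIs in 43 treated members and 670 UMIs in 44 control members: 393 against 1970 CPM, a log2 ratio of -2.33 (-2.59 to -2.07). Its shares of cells were close, 67.2% and 73.3%, so the libraries differed more in UMIs per cell than in cells with a UMI. Nfkbia, the inhibitor that NF-kappaB induces, stood at 649 and 1541 CPM (-1.25, -1.47 to -1.03). Nfkbiz stood at 377 and 670 CPM (-0.83, -1.15 to -0.52) and Bcl3 at 37.7 and 126 CPM (-1.75, -2.73 to -0.85). Icam1, the adhesion molecule for leukocytes, was at 353 and 447 CPM with an interval that reached 0 (-0.34, -0.69 to 0.00).

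Some named genes of cytokine receptors and of a transcription factor were also lower. Il1r1, the interleukin-1 receptor, stood at 205 and 523 CPM (-1.36, -1.76 to -0.96), and had a UMI in 51.6% of treated and 76.7% of control members. Osmr, the oncostatin M receptor, stood at 183 and 456 CPM (-1.32, -1.75 to -0.90). The list of growth factor and cytokine receptors, to which both belong, had a median of 0.16, with 1 of 19 genes at least 1.5-fold higher and 3 lower, so the receptors as a whole did not share this. Cebpb, a transcription factor that acts with NF-kappaB at Il6, stood at 942 and 2211 CPM (-1.23, -1.42 to -1.05).

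The promoters of some of these genes are shown. They were picked because these genes were lower together and their promoters hold letters of the kind that NF-kappaB dimers read. The stretches below are the 120 bases before the start of each gene, 5′ to 3′ on the gene's strand, from RefSeq on GRCm38.p6. Capitals mark matches, on either strand, to a kappaB pattern of 3 G, any 2 bases, 3 T and 2 C.
Cxcl1, chr5:90891125-90891244, plus strand: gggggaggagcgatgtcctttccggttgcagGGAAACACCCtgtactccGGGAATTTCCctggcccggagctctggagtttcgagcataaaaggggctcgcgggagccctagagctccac
Cxcl2, chr5:90903779-90903898, plus strand: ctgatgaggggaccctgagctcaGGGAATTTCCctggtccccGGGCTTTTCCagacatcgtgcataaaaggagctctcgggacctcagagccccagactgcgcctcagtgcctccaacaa
Il6, chr5:30012994-30013113, plus strand: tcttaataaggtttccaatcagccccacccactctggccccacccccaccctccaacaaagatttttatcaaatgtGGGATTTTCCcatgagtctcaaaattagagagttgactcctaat
Nfkbia, chr12:55492648-55492767, minus strand: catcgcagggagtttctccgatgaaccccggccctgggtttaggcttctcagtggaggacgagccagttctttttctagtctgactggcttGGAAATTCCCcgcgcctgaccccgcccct
The matches begin 89 and 71 bases before the start in Cxcl1, 97 and 78 in Cxcl2, 44 in Il6 and 29 in Nfkbia. The same letters occur in 0.866% of the 27025 promoters of the table. Among listed genes with an entry they occur in 3 of 13 chemokines (Cxcl1, Cxcl2 and Ccl20, the last with no UMI in members), 1 of 15 cytokine genes (Il6), 3 of 8 NF-kappaB feedback genes (Nfkbia, Nfkb2 and Tnfaip3) and 0 of 14 elastic fibre genes. A looser pattern (3 G, any 5 bases, 2 C), which includes all matches of the first, is in 33.9% of all promoters, in 7 of 13 chemokines, 9 of 15 cytokine genes, 8 of 8 NF-kappaB feedback genes, 7 of 14 elastic fibre genes and 5 of 14 adventitial genes. Of the 6 genes Cxcl1, Ccl2, Ccl7, Il6, Ptx3 and Tnfaip6, 4 had an entry, and only Cxcl1 and Il6 matched either pattern. No entry was found for Ccl2, Ccl7 and Nfkb1. A match describes the letters only.

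Genes of adhesive glycoproteins and of hyaluronan were mostly lower. The list mixes other adhesive glycoproteins with genes of the hyaluronan-rich provisional matrix, which binds leukocytes and stiffens around inflamed cells. Of 19 adhesive glycoprotein and hyaluronan genes measured, 10 were at least 1.5-fold lower and 1 at least 1.5-fold higher, and the median log2 ratio was -0.67. Ptx3, a pentraxin that crosslinks this matrix, had 144 UMIs in 18 treated members and 696 UMIs in 34 control members, 388 against 2046 CPM, a log2 ratio of -2.40 (-2.67 to -2.14). Ptx3 is not in that list and was named for the size of its ratio. Tnfaip6, whose product transfers heavy chains onto hyaluronan, stood at 1367 and 3608 CPM (-1.40, -1.55 to -1.25), with a median cell at 142 and at 1809 CPM. Has1 stood at 805 and 1511 CPM (-0.91, -1.12 to -0.70), and Ugdh, which makes the sugar precursor of hyaluronan, at 845 and 1894 CPM (-1.16, -1.36 to -0.97). Ugdh was picked out after its values were seen. Cd44, the hyaluronan receptor, stood at 175 and 691 CPM (-1.98, -2.40 to -1.58), and at -2.75 without sub-cluster 2. Fn1, fibronectin, was higher, at 2629 and 1799 CPM (0.55, 0.40 to 0.70), and at 0.22 among members with at most 2 leukocyte UMIs. In those members the list's median was -0.26, while Ptx3 was at -2.28 and Tnfaip6 at -0.91.

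**Figure D3:**
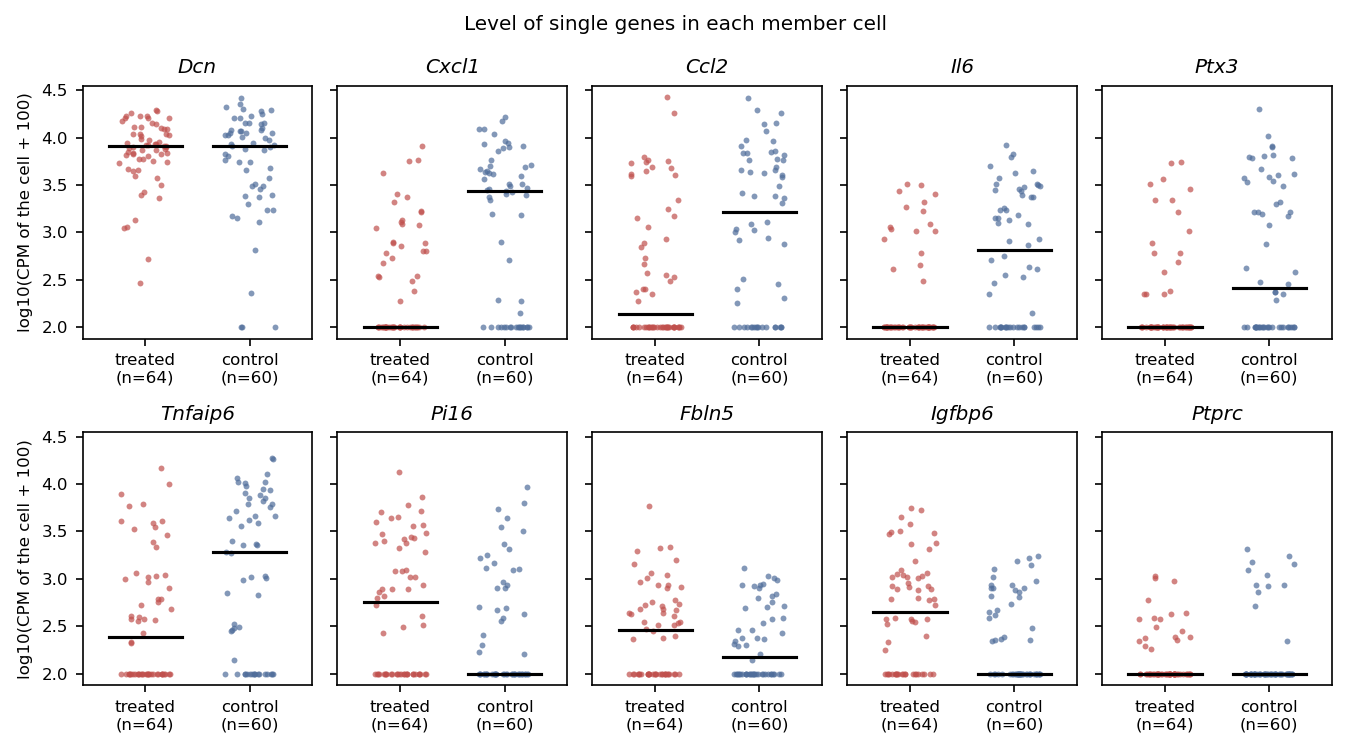
Level of 10 genes in each member cell, as log10 of the cell's CPM plus 100 (vertical axis), for the 64 treated and 60 control members (points, shifted sideways to be seen; the bar is the median). The points of Cxcl1, Ccl2, Il6, Ptx3 and Tnfaip6 thin out at the top in treated members, and Pi16, Fbln5 and Igfbp6 sit higher there.

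The inflammatory genes were carried by the same cells in part. Of the 6 genes Cxcl1, Ccl2, Ccl7, Il6, Ptx3 and Tnfaip6, 3 or more were detected in 29 of 64 treated members (45.3%, 32.8 to 58.3) and in 42 of 60 control members (70%, 56.8 to 81.2). Cells with 5 or 6 of the genes made up 23.4% and 55%, and cells with none made up 20.3% and 8.33%. After thinning each cell to 2000 UMIs, which left out 13 treated and 21 control members, the share with 3 or more was 37.3% (24.1 to 51.9) and 56.4% (39.6 to 72.2), and with 5 or 6 it was 11.8% (4.44 to 23.9) and 35.9% (21.2 to 52.8). The order of the libraries was the same, with overlapping intervals for both shares. Sub-cluster 2, whose cells carry white cell genes, has 7 treated and 15 control cells. Of these 22 cells, 72.7% had a UMI of Cxcl1, 81.8% of Ccl2 and 72.7% of Il6. The part of these unequal numbers in the shares was not tested. The 6 genes were chosen with their values known.

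Some of these genes were lower in each sub-cluster and others were not. Cxcl1 had log2 ratios of -2.01 (-2.30 to -1.73), -2.48 (-2.84 to -2.13), -3.97 (-5.62 to -2.71) and -3.38 (-4.48 to -2.45) in sub-clusters 0 to 3. Ccl2 was at -1.76, -0.94, -2.40 and -5.51, the last from 2 treated and 90 control UMIs. Nfkb1 was at -1.31, -3.70, -1.46 and -2.43. Il6 was at -1.14 and -2.44 in the first and the second, and had only 1 treated UMI in each of the others. Has1 was level in sub-cluster 0 (194 and 196 UMIs) and in sub-cluster 3 (13 and 13 UMIs) and at -1.89 in sub-cluster 1. Cxcl12 was level in sub-cluster 3 (56 and 55 UMIs), Cxcl13 had 9 treated and 0 control UMIs there, and Il33 was at 0.24 (-0.50 to 1.02) in sub-cluster 1. In sub-cluster 2 fibroblast genes were lower too: Dcn had 114 treated and 399 control UMIs (-1.28, -1.60 to -0.98), Col1a1 was at -2.34 and C3 at -1.60. The white cell genes S100a8 and Cd74 were higher there (1.21 and 1.54), so its treated and control cells differed in more than inflammatory genes. The part of this in its ratios was not tested. The sub-clusters hold 7 to 24 cells of a library, so single cells weigh heavily in them.

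Macrophages of the same libraries gave other values. In the macrophage gate (1888 and 1362 barcodes) Cxcl1 was at 855 and 988 CPM, a log2 ratio of -0.21 (-0.25 to -0.17), Ccl2 at 2112 and 2352 CPM (-0.15) and Nfkb1 at 1412 and 1822 CPM (-0.37). Il6 was at 78.4 and 65.4 CPM there, slightly higher in the treated library (0.26, 0.12 to 0.41), as was Ptgs2 (0.31, 0.24 to 0.38). Over all kept barcodes outside the members the log2 ratio was 0.63 for Cxcl1, 0.66 for Ccl2 and 1.33 for Il6, so there these genes were higher in the library labelled treated. The mix of cell types differs between the libraries in that last set. The difference between members and other cells was not tested.

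**Figure D4:**
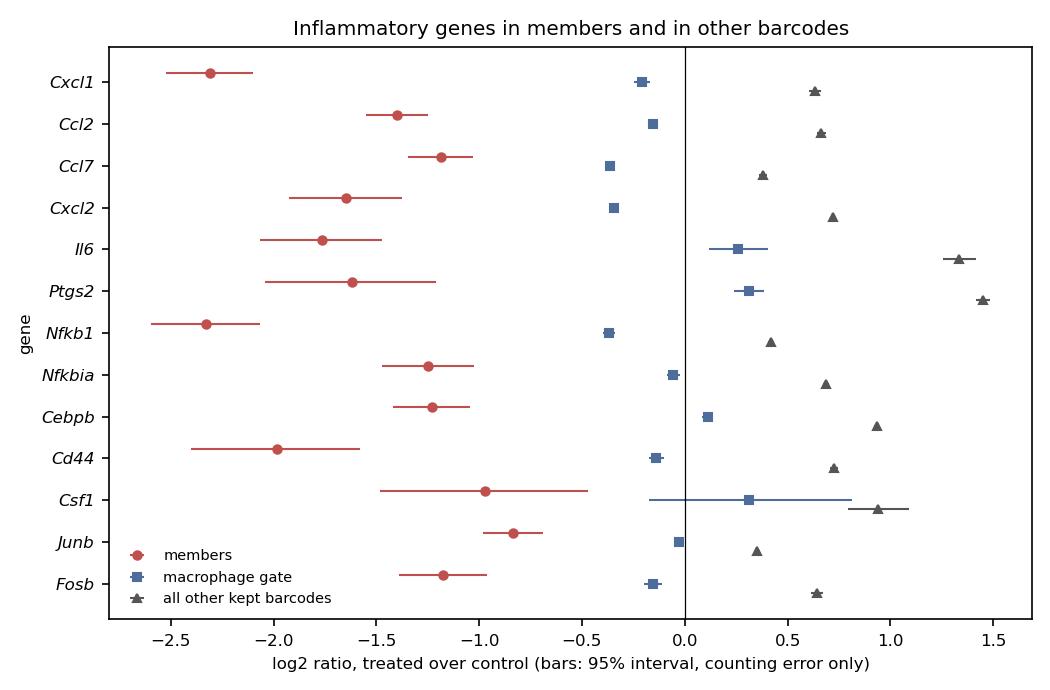
Log2 ratio of treated over control CPM (horizontal axis, bars: 95% interval for counting error) for 13 inflammatory and immediate early genes in members, in the macrophage gate and in all other kept barcodes. The 13 genes were chosen with their lower values in members known, and Fos (0.19), Egr1 (-0.33), Icam1 (-0.34) and Cxcl10 (-0.25) are not drawn. Every plotted member value lies left of -0.8, the macrophage values lie between -0.4 and 0.4, and those of all other barcodes lie right of 0.3.

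Genes of the immediate early and heat shock list were lower in part. Immediate early genes switch on within minutes of stimulation or tissue handling. Of 25 list genes measured, 8 were at least 1.5-fold lower and 2 at least 1.5-fold higher. The list's median was -0.52, and -0.11 with equal weight per cell. Fosb stood at 724 and 1635 CPM (-1.18, -1.39 to -0.96) and Junb at 1679 and 2996 CPM (-0.84, -0.98 to -0.69). Fos was slightly higher, at 2559 and 2249 CPM (0.19, 0.05 to 0.33), and Egr1 slightly lower, at 1814 and 2279 CPM (-0.33, -0.48 to -0.18). Among members with at most 2 leukocyte UMIs the list's median was -0.01 and Egr1 was at 0.07, so the direction of the list did not hold there. Of the 10 measured genes of the metallothionein and glucocorticoid response list, 1 was at least 1.5-fold higher and 4 lower, with a median of -0.17 and 5 above 0. Its metallothionein genes Mt1 and Mt2, which bind zinc and copper and answer metal, glucocorticoid and interleukin-6, stood at 2855 and 5251 CPM (-0.88, -0.99 to -0.77) and at 1219 and 2205 CPM (-0.86, -1.03 to -0.68).

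Of 14 fibrillar and beaded collagen genes, 3 were at least 1.5-fold higher and 2 lower in the library labelled treated, a share near the 19.6% and 15.9% of all genes. The list's median was 0.41 with 10 of 14 above 0, but 0.08 with equal weight per cell and 0.14 among members with at most 2 leukocyte UMIs. Of the rule's own genes, which are a description, Col1a1 was at 1615 and 1267 CPM, Col1a2 at 2252 and 1614 CPM and Col3a1 at 3235 and 2343 CPM (log2 ratios 0.35, 0.48 and 0.46), and Dcn was at -0.13. With equal weight per cell Col1a1 was at -0.44 and Col3a1 at -0.16, so the sums rest on the larger cells. Col6a3 of the beaded collagen VI stood at 207 and 106 CPM (0.97, 0.38 to 1.58), and Col14a1 of the fibril-associated collagen XIV at 1141 and 785 CPM (0.54, 0.32 to 0.77). Pdgfra was at 274 and 194 CPM (0.50, 0.04 to 0.97).

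Genes that fold, modify and crosslink collagen had a median of 0.49: of 22 measured, 10 were at least 1.5-fold higher and 1 lower, and 19 were above 0. Serpinh1, the collagen chaperone, stood at 1168 and 741 CPM (0.66, 0.43 to 0.89). Loxl1, which crosslinks elastin, stood at 549 and 303 CPM (0.86, 0.51 to 1.21) and had a UMI in 65.6% and 38.3% of cells. Sparc, a collagen-binding glycoprotein, stood at 2209 and 1799 CPM (0.30, 0.14 to 0.45). Among members with at most 2 leukocyte UMIs the list's median was 0.07, Loxl1 was at 0.16 and Sparc at -0.01, whereas Serpinh1 was at 0.55.

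Of 17 elastic fibre genes measured, 6 were at least 1.5-fold higher and 0 lower, and the median was 0.49. Eln, the gene of tropoelastin, had 297 UMIs in 20 treated members and 42 UMIs in 13 control members, 799 against 123 CPM, a log2 ratio of 2.69 (2.22 to 3.20). Few cells carried it: the median cell was at 0 in both libraries, 3 treated cells held 125, 76 and 50 of the UMIs, and the other 61 treated cells held 46. The second of these is the cell high in Acta2. Without the highest cell of each library Eln was at 2.47, with equal weight per cell at 1.59 and among members with a UMI of Pdgfra at 1.47. In sub-clusters 0 and 1 it had 6 and 14 treated and 4 and 4 control UMIs, with intervals that spanned 0. Fbln5, which guides elastin onto microfibrils, stood at 678 and 235 CPM (1.53, 1.16 to 1.91), and at 0.88 without the cells highest in Acta2 and in Fabp4. It was found in 56.2% and 51.7% of cells. Fbn1 stood at 899 and 647 CPM (0.47, 0.22 to 0.73), but at -0.15 among members with at most 2 leukocyte UMIs. Lum, of the small leucine-rich proteoglycans, was lower at 912 and 1185 CPM (-0.38, -0.59 to -0.17), and that list's median was -0.12, with 1 of 6 genes above 0.

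Of 18 genes of adventitial fibroblasts measured, 7 were at least 1.5-fold higher and 2 lower, with a median of 0.55, and 14 had intervals above 0. The 2 lower genes were Has1 (-0.91) and Ugdh (-1.16), given above with the hyaluronan genes. Sub-cluster 1, which holds these genes at high levels, has 22 treated and 12 control cells, and sub-cluster 2 has 7 and 15. The part of these numbers in the ratios was not tested. Pi16 stood at 1757 and 1200 CPM (0.55, 0.37 to 0.73). Its median cell was at 474 CPM in treated members and at 0 in control members, with highest cells of 13186 and 9130 CPM. Sema3c, a secreted guidance cue, stood at 509 and 182 CPM (1.48, 1.06 to 1.92), and Dpp4, a surface peptidase, at 126 and 26.5 CPM (2.26, 1.21 to 3.47). Efhd1 stood at 108 and 35.3 CPM (1.61, 0.65 to 2.68), and with equal weight per cell Dpp4 was at 1.53 and Efhd1 at 2.33. Ly6a stood at 3399 and 2776 CPM (0.29, 0.17 to 0.42). Of the fibroblast transcription factor list, whose median was -0.01, Ebf2 stood at 425 and 147 CPM (1.53, 1.06 to 2.02), and Prrx1 at 350 and 209 CPM (0.74, 0.32 to 1.18), or 1.40 with equal weight per cell.

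These ratios depended on which members were counted. Among members with at most 2 leukocyte UMIs the median of the adventitial list was 0.23, Pi16 was at 0.01, Sema3c at 0.50 and Ly6a at 0.07, while Dpp4 was at 1.72 and Ebf2 at 1.95. In sub-cluster 3 Pi16 was lower in the treated library (-2.49, -3.12 to -1.90), and in sub-clusters 0 and 1 it was higher (1.25 and 1.02). Of the 12 measured genes of the parenchymal fibroblast list, 3 were at least 1.5-fold higher and 4 lower, with a median of 0.01.

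**Figure D5:**
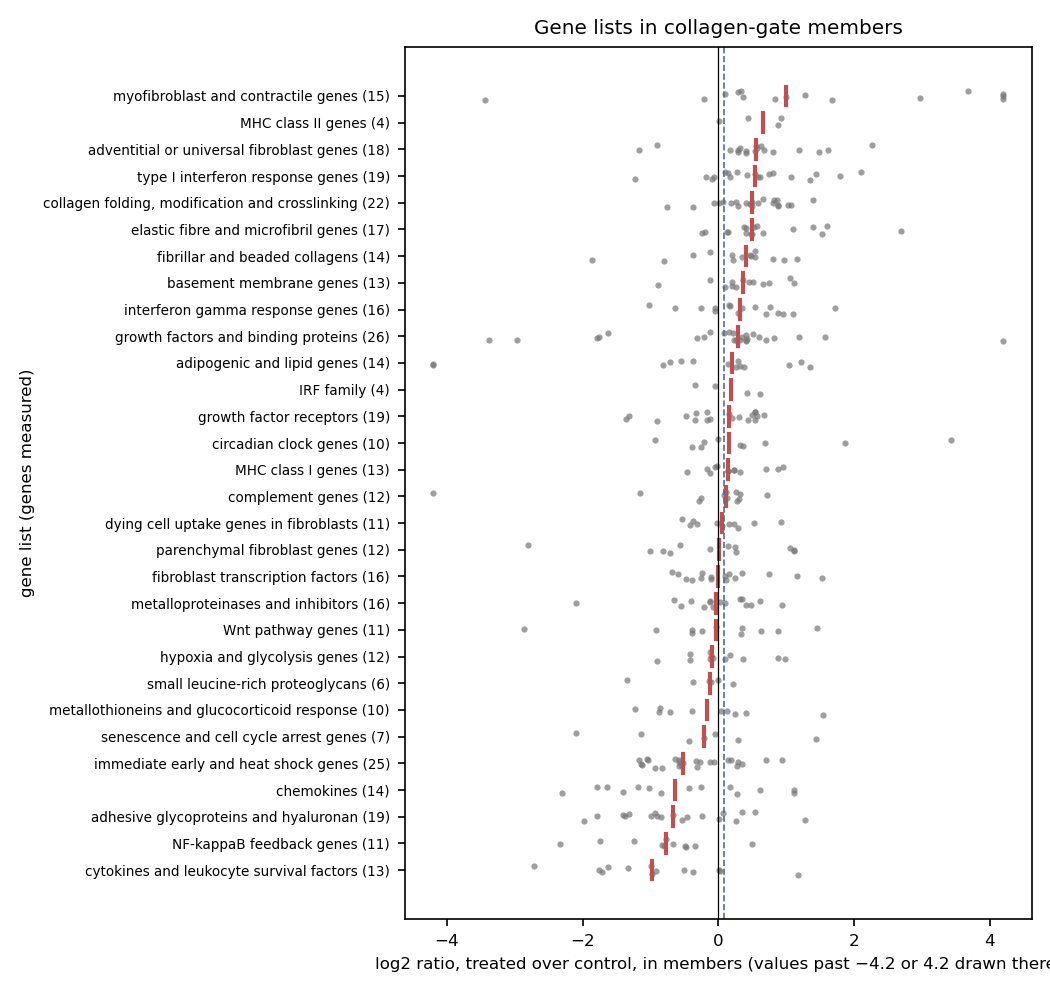
Log2 ratio of treated over control in members (horizontal axis) for each measured gene (grey points) of the gene lists with at least 4 measured genes (rows, number measured in brackets). The red bar is the list's median and the dashed line the median of all 5532 genes, 0.08. The lists of cytokines, NF-kappaB feedback genes, adhesive glycoprotein and hyaluronan genes, and chemokines have the lowest medians, from -0.97 to -0.64.

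Growth factor and binding protein genes had a median of 0.29, with 6 of 26 at least 1.5-fold higher and 5 lower. The insulin-like growth factor binding proteins went different ways. Igfbp6 stood at 996 and 335 CPM (1.57, 1.26 to 1.89), with a UMI in 42 and 27 cells and a median cell at 355 and at 0 CPM. Igfbp4 stood at 2527 and 1882 CPM (0.43, 0.28 to 0.57). Igfbp3 was lower, at 78.0 and 612 CPM (-2.97, -3.58 to -2.41), and at -2.08 among members with at most 2 leukocyte UMIs and -1.50 with equal weight per cell. Igfbp5 stood at 2433 and 1611 CPM (0.59, 0.44 to 0.75) and was found in 35 and 15 cells, but 1 control cell held 294 of 548 UMIs, and it was at 1.26 without the highest cell of each library and at -0.20 among members with at most 2 leukocyte UMIs.

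Proteases and complement showed no common direction. Of 16 metalloproteinase and inhibitor genes, 2 were at least 1.5-fold higher and 2 lower, with a median of -0.03. Timp2 stood at 1773 and 1164 CPM (0.61, 0.43 to 0.79) and Mmp14, the membrane collagenase, at 309 and 162 CPM (0.94, 0.46 to 1.43). Timp3 was at -0.65 (-0.94 to -0.36) in the sums, yet 39 treated and 17 control cells had a UMI, and with equal weight per cell it was at 0.25. Of 12 complement genes, 1 was at least 1.5-fold higher and 2 lower. C3 was nearly level (0.11, 0.01 to 0.21), Serping1, the C1 inhibitor, was at -0.25 (-0.38 to -0.12), Cfb, of the alternative pathway, at 0.71 (0.35 to 1.08), and C7, of the membrane attack complex, at -1.16 (-1.59 to -0.74).

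Type I interferon response genes were modestly higher as a list. Of 19 measured, 8 were at least 1.5-fold higher and 1 lower, the median was 0.54, and 6 had intervals above 0. Among members with at most 2 leukocyte UMIs the list's median was 0.29. Of 16 interferon gamma response genes, 6 were at least 1.5-fold higher and 2 lower, with 2 intervals above 0 and 1 below. Ifi205, by its name an interferon-activated gene but not in these lists, was at -2.37. Isg15 stood at 231 and 85.3 CPM (1.44, 0.82 to 2.10), with a UMI in 40.6% and 26.7% of cells, and Rtp4 at 105 and 41.2 CPM (1.35, 0.44 to 2.35). Ifit3 had 42 UMIs in 16 treated and 9 UMIs in 5 control members (2.09, 1.04 to 3.32), 20 of the 42 in 1 cell, and was at 0.47 among members with at most 2 leukocyte UMIs. Cxcl10, which interferon also induces, was level within counting error (-0.25, -0.55 to 0.05), but at -1.59 among members with at most 2 leukocyte UMIs. In the macrophage gate Isg15 was at 0.01. The leukocyte list stood at 1171 and 1394 CPM, lower in treated members, and its part in these values was not tested.

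A few genes outside these groups were named for the size of their ratio. Dbp, a clock output gene, had 47 UMIs in 26 treated members and 4 UMIs in 4 control members (3.43, 1.98 to 5.36), and stood at 2.27 with equal weight per cell and at 2.14 in the macrophage gate. Axl, a receptor for Gas6 that takes part in the uptake of dying cells, stood at 533 and 282 CPM (0.92, 0.56 to 1.28) and was found in 47 and 27 cells. The clock gene list had a median of 0.16, with 3 of 10 measured genes at least 1.5-fold higher and 1 lower. The list of dying cell uptake genes had a median of 0.05, with 1 of 11 at least 1.5-fold higher and 0 lower. The myofibroblast and contractile gene list had a median of 0.998, but it was 0.20 without the cells highest in Acta2 and in Fabp4. In the sums Acta2 was at 4.93 and Tagln at 4.92, and without the highest cell of each library they were at 1.18 and -1.46.

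By the fixed rule of size the highest ratios after Acta2 were those of Id1 (3.52), Myl9 (2.98), Eln (2.69), Cpe (2.60), Jchain (2.26), Smpd3 (2.13), Gxylt2 (2.12), Scd2 (1.84), Aldh1a3 (1.74), Igfbp6 (1.57) and Tm4sf1 (1.56). One treated cell held 37 of 50 UMIs of Id1, which was at 1.05 without sub-cluster 2, and 1 held 231 of 252 UMIs of the plasma cell gene Jchain, which was at -1.26 without the highest cell of each library. Smpd3, a sphingomyelinase, was instead spread over 20 treated and 7 control cells, Gxylt2 over 30 and 11, and Scd2, a fatty acid desaturase, over 31 and 9, at 0.91 with equal weight per cell. The lowest ratios were those of Fabp4 (-5.58), Comp (-3.44), Depdc5 (-3.39), Igfbp3 (-2.97), Adamts9 (-2.96), Enpp2 (-2.80), Map3k5 (-2.64), Lsmem1 (-2.40), Ptx3 (-2.40), Ifi205 (-2.37), Ccl4 (-2.33) and Nfkb1 (-2.33). Single control cells held 584 of 655 UMIs of Fabp4, 100 of 139 of Comp and 73 of 92 of Ccl4, and with equal weight per cell Comp was at -1.08 and Ccl4 at -0.10. Without the cells highest in Acta2 and in Fabp4, Myl9 was at 0.88, Fabp4 at -3.68 and Map3k5 at -2.09. Ifi205 was found in 28 treated and 37 control cells at 196 and 1014 CPM, and Map3k5 in 12 and 28 cells.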

How the data were processed

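The deposited values are UMI counts per gene and barcode with no normalization, per the file headers and the values. A 10x Genomics kit for 3′ ends was used, per the labels' protocols, which also describe lysis in TRIzol and freezing, and how these steps fit together is not stated. The submitters' processing notes name mm10, Seurat 4.4.0 and Cell Ranger 3.1.0, but the file headers name Cell Ranger 7.2.0, and no source says how intronic reads were treated. Kept libraries held 77200450 UMIs in 12466 barcodes (treated) and 88007779 in 12038 (control).

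Counts with the same gene symbol were summed. Doublets were called with Scrublet in scanpy 1.11.5, and members were clustered with Leiden (1000 variable genes, 10 components, 10 neighbours, resolution 0.5). Ratios are of summed CPM with exact binomial intervals at 95%, CPM intervals are exact Poisson and shares Clopper-Pearson. Where a library had no UMI of a gene, a floor of 3 UMIs gave a bound. Since the kit counts 3′ ends, CPM was not divided by transcript length.

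Named genes are the rule's genes with Pdgfra, Irf5 and Ptprc, the 20 highest levels, the 12 highest and 12 lowest ratios (at least 50 UMIs and 20 CPM in a library, 10 members with a UMI), up to 4 genes of each of 32 lists by level and by ratio (at least 20 UMIs), 5 leading genes per sub-cluster, and markers whose level or absence is the point. Mitochondrial, ribosomal, haemoglobin, sex-linked, predicted and receptor segment genes were left out. The members and lists were chosen with earlier results of these data known. Some genes that the rule names are not reported here. The interval procedure was tested on simulated data. Alternatives are in the closing section.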

Additional observations from a re-analysis of the deposited data

Results flagged for a closer look

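For 13 named genes the log2 ratio of treated over control was above 0 in members and below 0 in the macrophage gate, or the reverse, with intervals off 0 in both. The difference between the cell sets was not tested. The member value minus the macrophage value was -3.87 for Adamts9, -2.03 for Il6, -1.93 for Ptgs2, -1.43 for Ugdh, -1.34 for Cebpb, -1.30 for Cxcl12, -1.09 for Mt2, -1.04 for Nfkbiz and -0.54 for Egr1, all lower in members. It was 1.06 for Sparc, 1.19 for Col14a1, 3.43 for Jchain and 6.56 for Tagln, the last pair resting on 1 treated cell each.

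Outside the members, 23 treated and 31 control barcodes carried at least 5 UMIs of the collagen and decorin genes together with T cell, B cell or C1q genes, and enter no comparison.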

How the results depend on the processing

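Members with a UMI of Pdgfra were 0.321% of treated and 0.266% of control barcodes. Genes at least 1.5-fold higher and lower numbered 68 and 124 among members with at most 2 leukocyte UMIs, 1083 and 878 with a minimum of 20 UMIs and no CPM minimum, and 46 and 53 after thinning, which tests fewer genes. Centring on the median gave 139 and 266, and TMM 136 and 266.

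With at most 2 leukocyte UMIs the list medians were -0.39 for small leucine-rich proteoglycans, -1.01 for chemokines and -0.0053 for immediate early and heat shock genes. In these members Col3a1 was at -0.14, Egr1 at 0.072, Fbn1 at -0.15, Sparc at -0.0063, Igfbp5 at -0.20 and Jchain at -2.02. Ptprc was at 2.38, but it is among the genes counted for that limit, so this value is partly set by it. With equal weight per cell the medians of those lists, in the same order, were 0.17, -0.28 and -0.11, and 0.15 for MHC class II genes. Col1a1 was then at -0.44, Col3a1 at -0.16, Sparc at -0.081 and Timp3 at 0.25. After thinning MHC class II genes were at -0.024, senescence genes at -1.27 and Pdgfra at -0.21. Ptprc was at 2.42 without sub-cluster 2, which held 13 treated and 41 control UMIs of it. That value rests on few UMIs: sub-clusters 0, 1 and 3 held 6, 4 and 3 treated and 1, 0 and 1 control UMIs of Ptprc. Tagln was at -1.46 without its highest cells and at -2.12 without the cells highest in Acta2 and Fabp4. Jchain was at -1.26 without its highest cells, -1.26 with a sum of at least 10 rule UMIs and -1.36 with a UMI of Pdgfra. The cause was not tested. Of the values of named genes across all settings, 1010 stayed within their counting interval, 167 left it and 18 reversed sign although their interval had excluded 0. Thinning and the settings without sub-cluster 2 or without the cells highest in Acta2 and Fabp4 were chosen after seeing the data. No paired analysis was possible because each group has 1 library, and no replicate could be left out.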
